A study of Mus musculus with 4 samples.

Results

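Phosphatidylinositol phosphate kinases are a family of 6 enzymes in the mouse lung tumour data described here: the type I enzymes Pip5k1a, Pip5k1b and Pip5k1c and the type II enzymes Pip4k2a, Pip4k2b and Pip4k2c. They were taken by gene name from the deposited expression table, which held all 6 among 21420 named genes, and all 6 passed the level filter (a mean of at least 1 FPKM, fragments scaled by gene length and library depth, in either group) that 12476 genes passed. The KL25 mice carried floxed Lkb1 (Lkb1fl/fl; Lkb1 is Stk11, a tumour suppressor kinase) and the Usp25-/- genotype, Usp25 being a deubiquitinase gene. The KL mice carried the same floxed Lkb1 without the Usp25 deletion. All mice received adenoviral Cre by the nose, which recombines floxed alleles in whichever airway cells it infects, and their tumours were taken 10 weeks later. The tumour cells were dissociated and incubated with magnetic beads against CD45, the pan-leukocyte surface protein, and the fraction labelled CD45- gave 2 RNA sequencing libraries per group, and the series design states that each group held 2 mice. Age, sex and strain background of the mice are not stated in the labels.

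The 6 enzymes feed 1 lipid. Type I kinases phosphorylate phosphatidylinositol 4-phosphate at the fifth position of the inositol ring and make most of the phosphatidylinositol 4,5-bisphosphate, PI(4,5)P2, of the plasma membrane. Type II kinases phosphorylate phosphatidylinositol 5-phosphate at the fourth position and make a smaller pool of the same lipid, largely on internal membranes. PI(4,5)P2 is the substrate of phospholipase C and of class I PI 3-kinases, and it anchors adhesion, endocytic and actin-binding proteins such as talin, the AP-2 adaptor and ezrin.

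The family was singled out because Pip5k1c was lower in KL25 in the authors' deposited table, where the log2 fold change is listed as -1.01, its SE as 0.200 and its adjusted p as 0.00261. These values chose the family, so the contrast of KL25 with KL is given for the 6 genes as a description, without a test. Among all genes of that table, 5 genes, 0.0339% of those with an adjusted p, were lower at an adjusted p below 0.05, and 13 genes, 0.0880%, were higher. Pip5k1c was the single member among them. In limma (Benjamini-Hochberg adjustment over all genes tested) 0 of 12476 genes passed in either direction, 0% higher and 0% lower, and the unadjusted p was below 0.05 for 269 higher genes (2.16%) and 134 lower genes (1.07%). A single library can move these unadjusted counts and turn their balance: dropping KL replicate 2 gave 1205 higher and 1445 lower genes, dropping KL replicate 1 gave 286 higher and 304 lower, dropping KL25 replicate 2 gave 375 higher and 92 lower, and dropping KL25 replicate 1 gave 107 higher and 49 lower. No member therefore passed in limma. Usp25, the deleted gene, did not pass either, with an unadjusted p of 0.00103 and an adjusted p of 0.942 in limma. A gene that does not pass in this fit can therefore still differ between the groups.

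Pip5k1c lies on the plus strand of chromosome 10 (chr10:81292963-81319973, GRCm38), where 4 protein-coding transcripts are annotated, and counts per gene do not separate them. The other members lie at chr3:95058530-95106930 (Pip5k1a), chr19:24294794-24555872 (Pip5k1b), chr2:18842255-18998126 (Pip4k2a), chr11:97715157-97744704 (Pip4k2b) and chr10:127197067-127211585 (Pip4k2c), all on the minus strand. The windows of 250 bases before the RefSeq starts (GRCm38.p6) of Pip5k1c and of Pip5k1a, a type I gene whose groups overlapped, are shown because these promoters belong to the members with the clearest and the least clear difference. Capitals mark exact matches on either strand to the GC box, spelled GGGCGG, to the CCAAT box, spelled as its name, or to the E-box, spelled CACGTG.
Pip5k1c, chr10:81292713-81292962, plus strand: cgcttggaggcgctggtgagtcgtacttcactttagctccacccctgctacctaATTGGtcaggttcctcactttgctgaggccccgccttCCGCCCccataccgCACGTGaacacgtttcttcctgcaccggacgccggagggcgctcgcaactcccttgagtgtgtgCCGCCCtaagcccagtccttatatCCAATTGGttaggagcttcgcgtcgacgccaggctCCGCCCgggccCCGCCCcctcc
Pip5k1a, chr3:95106931-95107180, minus strand: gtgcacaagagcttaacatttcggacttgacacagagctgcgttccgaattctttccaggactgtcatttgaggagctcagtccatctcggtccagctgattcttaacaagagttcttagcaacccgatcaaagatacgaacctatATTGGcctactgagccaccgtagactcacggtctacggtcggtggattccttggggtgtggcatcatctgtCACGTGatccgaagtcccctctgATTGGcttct
The Pip5k1c window held 4 GC box, 3 CCAAT box and 1 E-box matches, and 2 of the CCAAT matches, on opposite strands, overlap in the run CCAATTGG. The Pip5k1a window held 0 GC box, 2 CCAAT box and 1 E-box matches. Of 32851 RefSeq windows of this length, 32.7% held a GC box, 33.8% a CCAAT box and 6.02% an E-box. TATAAA, found in 12.4% of all windows, matched in neither. The G and C content was 63.2% for Pip5k1c and 50% for Pip5k1a, against a median of 52.4% over all windows. The windows of Pip4k2a and Pip4k2c held 78.8% and 65.2%, with 7 and 4 GC box matches and neither a CCAAT box nor an E-box match. A match describes the letters and is not evidence of binding.

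Some facts of the libraries stand beside every value below. Usp25 was at 2.65 and 1.71 FPKM across KL25 (replicate 1 first, here and throughout), versus 38.5 and 16.6 across KL, so the libraries follow their labels. Stk11 was at 16.9 and 20.7 FPKM across KL25, versus 19.5 and 23.9 across KL, with overlapping groups, and the counts per gene do not isolate its floxed exons. KL replicate 1 stood apart, with a correlation across genes of 0.868 to 0.882 with the other libraries, which correlated at 0.931 to 0.967 with each other. Leukocyte transcripts were abundant although the cells are labelled CD45-negative: Ptprc, which encodes CD45, was at 51.0 and 43.3 FPKM across KL25, versus 123 and 46.4 across KL. Relative depth, as size factors read from the deposited mean normalized counts, was 0.853 and 0.823 in KL25 and 1.30 and 1.09 in KL.

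Pip5k1c, whose product is the type I kinase of focal adhesions and synapses and binds talin through a splice-dependent tail, was at 22.2 FPKM in KL25 replicate 1 and 22.04 FPKM in KL25 replicate 2, versus 41.9 FPKM in KL replicate 1 and 44.4 FPKM in KL replicate 2. The KL25 libraries were both below the KL libraries, and the replicates of each group lay close together. The mean was 22.1 ± 0.105 FPKM for KL25 and 43.2 ± 1.80 FPKM for KL (SD, n = 2 for each), which is 48.8% lower in KL25. On the log2(FPKM + 1) scale the difference was -0.93. The pooled SD between replicates was 0.042, while limma, which shares variance across genes, gave an SE of 0.277. An SD from 2 libraries per group is uncertain, and Pip5k1c was chosen with its difference known, so the small SD is no support for it. Pip5k1c also had the highest mean normalized count of the family, 1566, so its value rests on the most reads among the members. In rank, it lay above 76.5% and 77.3% of the genes tested in the KL25 libraries, and above 86.8% and 87.4% in the KL libraries. KL replicate 1, which stood apart across all genes, did not stand apart for Pip5k1c: without it the difference was -0.98, and it was -0.89 without KL replicate 2. In these bulk preparations, fewer cells that express a gene and less of its RNA per cell cannot be told apart.

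**Figure D1:**
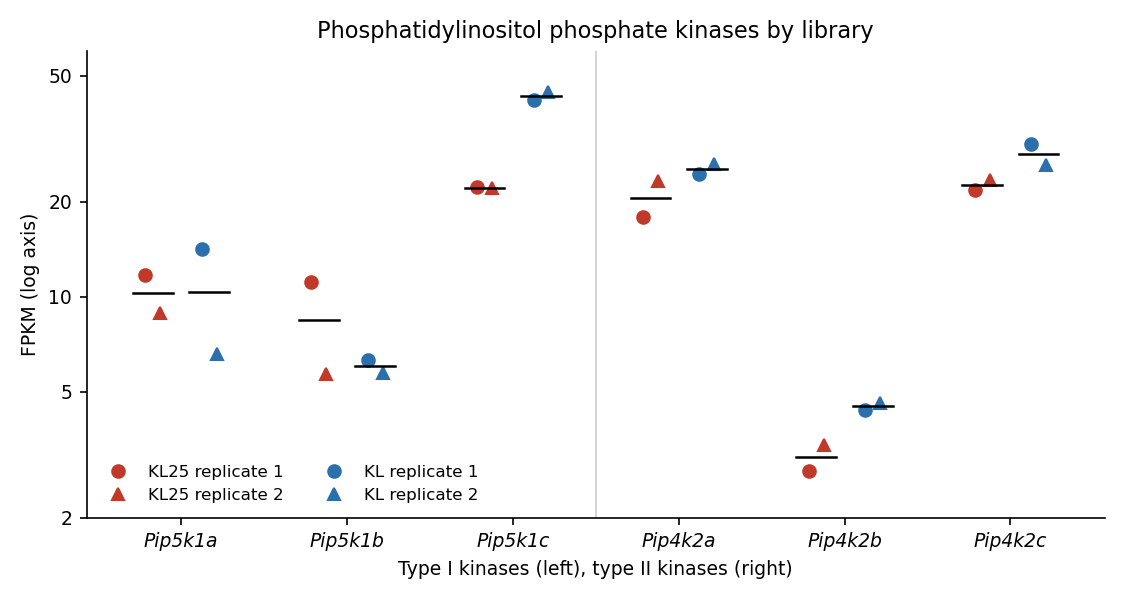
FPKM (log axis) of each of the 6 kinases in each library, with KL25 in red left of KL in blue, circles for replicate 1, triangles for replicate 2 and black lines for group means. Pip5k1c sits at 22.04 and 22.2 in KL25 and at 41.9 and 44.4 in KL, while the groups of Pip5k1a and Pip5k1b overlap.

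The other type I genes had no such separation. Pip5k1a, a widely expressed type I kinase, was at 11.7 and 8.89 FPKM across KL25, versus 14.2 and 6.60 across KL. The KL libraries held both its highest and its lowest value, so the KL25 values lay between them. Its means were 10.3 ± 2.02 FPKM for KL25 and 10.4 ± 5.36 FPKM for KL (SD, n = 2 for each), and the sign of its log2 difference turned with the library left out: 0.56 without KL replicate 1 and -0.44 without KL replicate 2, against 0.063 with all libraries and -0.057 in the authors' deposited table. Pip5k1b, the type I kinase whose gene spans 261079 bases of chromosome 19, was at 11.2 and 5.72 FPKM across KL25, versus 6.32 and 5.73 across KL. Only KL25 replicate 1 was high, and the remaining 3 libraries were alike. Its means were 8.44 ± 3.85 FPKM for KL25 and 6.03 ± 0.420 FPKM for KL (SD, n = 2 for each), and its log2 difference of 0.36 became -0.064 without KL25 replicate 1. Type I enzymes other than Pip5k1c summed to 22.9 and 14.6 FPKM across KL25, versus 20.5 and 12.3 across KL, so in these libraries the lower type I total of KL25 lay in Pip5k1c.

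All 3 type II genes were somewhat lower in KL25, each by less than Pip5k1c. Pip4k2a, on chromosome 2, encodes the type II isoform with the highest kinase activity of the 3. It was at 17.9 and 23.2 FPKM across KL25, versus 24.4 and 26.3 across KL, and KL25 replicate 2 and KL replicate 1 lay close together. Its mean was 20.5 ± 3.72 FPKM for KL25 and 25.3 ± 1.29 FPKM for KL (SD, n = 2 for each), a log2 difference of -0.30 that became -0.12 without KL25 replicate 1. Pip4k2b, on chromosome 11, encodes an isoform that is found partly in the nucleus. It was at 2.82 and 3.41 FPKM across KL25, versus 4.39 and 4.62 across KL, a mean 30.9% lower in KL25. It was the lowest member in every library, with a log2 difference of -0.42, a spread of 0.11 between replicates and an SE of 0.286 in limma. Pip4k2c, on chromosome 10, encodes the isoform with the least catalytic activity. It was at 21.8 and 23.5 FPKM across KL25, versus 30.4 and 26.0 across KL. Its log2 difference was -0.30, with a spread of 0.12 between replicates and an SE of 0.283 in limma. A long non-coding gene on the opposite strand, F420014N23Rik, shares 244 exonic bases with Pip4k2c but was at 0.333 and 0 FPKM across KL25, versus 1.04 and 0.304 across KL. No other member shared exonic bases with another annotated gene.

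Across the family, each KL25 library was below each KL library for 4 of 6 members, Pip5k1c and the 3 type II genes, where 15.0% of all genes tested did so, and 0 of 6 lay above, where 19.1% of all genes did. Without KL replicate 1 the count was again 4 of 6, where 36.7% of all genes had both KL25 libraries below KL replicate 2. Without KL replicate 2 it was 5 of 6, with Pip5k1a added, where 35.4% of all genes had both KL25 libraries below KL replicate 1. The median log2 difference of the members was -0.30, against 0.030 over all genes tested. The family was chosen with these values known, so these counts describe it and support nothing further.

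**Figure D2:**
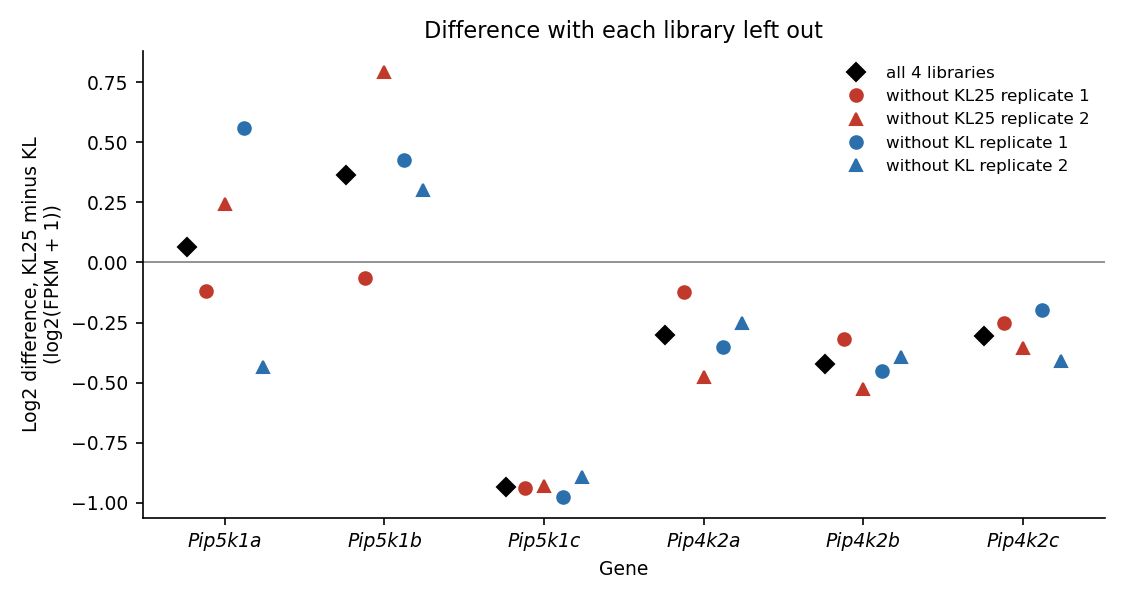
Log2 difference (KL25 minus KL, log2(FPKM + 1) scale) of each kinase with all 4 libraries (black diamonds) and with 1 library left out (red for a KL25 library, blue for a KL library). Pip5k1c stays between -0.98 and -0.89, the type II genes stay below 0, and Pip5k1a and Pip5k1b cross 0.

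The makeup of the family differed between the groups mainly through Pip5k1c. FPKM is scaled by length, so members can be summed and ranked. The 6 members summed to 87.6 and 86.7 FPKM across KL25, versus 122 and 114 across KL. Without Pip5k1c the sums were 65.4 and 64.6 FPKM across KL25, versus 79.7 and 69.3 across KL. Pip5k1c made up 25.3% and 25.4% of the family sum in KL25, against 34.4% and 39.1% in KL. Type I enzymes together made up 51.5% and 42.3% in KL25, against 51.3% and 49.9% in KL, and these shares overlap between the groups. The ratio of Pip5k1c to Pip4k2c within a library, which no scaling of the library can move, was 1.02 and 0.940 in KL25, against 1.38 and 1.71 in KL. The ratio of Pip5k1c to Pip4k2a was 1.24 and 0.951 in KL25, against 1.71 and 1.69 in KL.

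**Figure D3:**
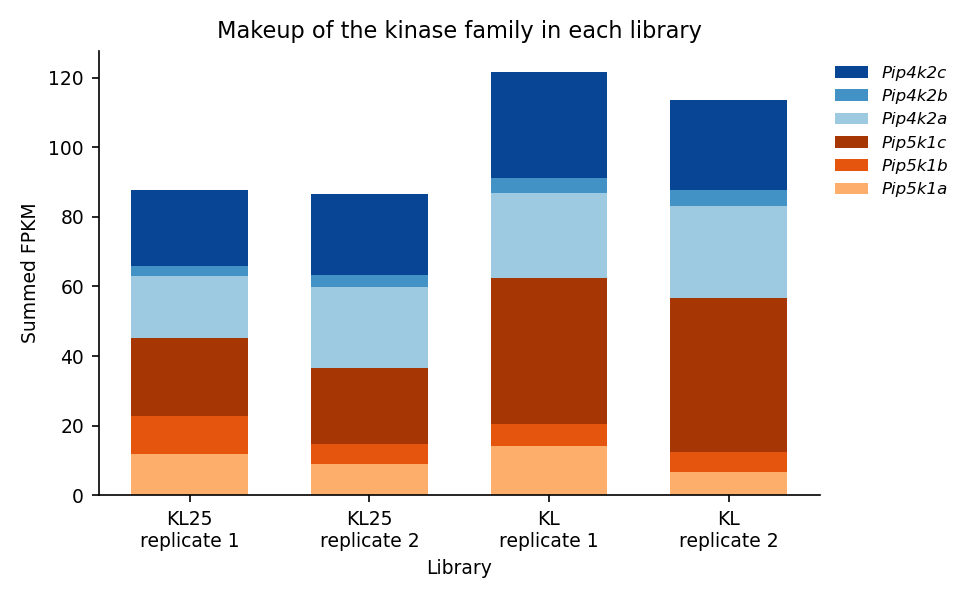
Summed FPKM of the 6 kinases in each library, with the KL25 libraries left of the KL libraries, type I genes in orange to brown at the bottom and type II genes in blue on top. The bars reach 87.6 and 86.7 in KL25 and 122 and 114 in KL, and the Pip5k1c block differs the most.

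By level the members fell into 3 tiers. Pip5k1c, Pip4k2c and Pip4k2a were the upper tier in every library, at 17.9 to 44.4 FPKM, and their ranges over the 4 libraries overlapped. In both KL libraries and in KL25 replicate 1 Pip5k1c was the highest, while in KL25 replicate 2 it came after Pip4k2c at 23.5 FPKM and Pip4k2a at 23.2 FPKM. Pip5k1a exceeded Pip5k1b in 4 of 4 libraries, although their ranges overlapped (6.60 to 14.2 and 5.72 to 11.2 FPKM), and both lay below the upper tier and above Pip4k2b in every library. Pip4k2b lay above 25.6% and 28.3% of the genes tested in KL25, and above 36.6% and 37.4% in KL.

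The members' profiles over the 4 libraries were compared by the root mean square difference of their log2(FPKM + 1) values after centring each gene on its own mean. The 3 type II genes lay close to each other, at 0.082 to 0.142. Pip5k1c lay at 0.266 to 0.342 from them, and at 0.641 and 0.719 from Pip5k1a and Pip5k1b. Among 11932 other genes the profiles nearest to Pip5k1c were those of Pex11a, a peroxisomal membrane protein (0.070), the small Cajal body RNA Scarna6 (0.096), the zinc finger gene Zfp523 (0.097), the SOCS box gene Spsb4 (0.102) and the cation channel Trpv4 (0.103), against a median of 0.577. Pex11a was at 3.81 and 4.28 FPKM across KL25, versus 7.62 and 8.65 across KL. Trpv4 was at 2.66 and 2.81 FPKM across KL25, versus 4.86 and 5.74 across KL. The nearest profiles were Slc8a1, Ift74 and Lrrc47 for Pip4k2a (0.011 to 0.023), Msr1, Kif3b and Slc38a1 for Pip4k2b (0.010 to 0.017), and Cog8, Depdc5 and Cpsf3 for Pip4k2c (0.014 to 0.018). Msr1, a macrophage scavenger receptor, was at 38.2 and 44.9 FPKM across KL25, versus 55.4 and 57.3 across KL. For Pip5k1a they were Hivep2, Ibtk and Chka (0.026 to 0.041), and for Pip5k1b the glycolytic gene Ldha, Cdca4 and Hccs (0.025 to 0.037). Ldha was at 864 and 473 FPKM across KL25, versus 500 and 460 across KL. Over 4 libraries many genes can share a profile, so these names describe likeness alone.

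Cell type markers differed between the same libraries. Among 14 leukocyte genes, 5 had both KL25 libraries below both KL libraries (15.0% of all genes tested did) and 0 above (19.1% of all genes). Lyz2 is the most abundant gene of the list and is not confined to leukocytes in the lung. Without Lyz2 the list summed to 3592 and 3612 FPKM across KL25, versus 5148 and 4851 across KL. With Lyz2 the sums, which are then mostly Lyz2, were 35035 and 36183 FPKM across KL25, versus 17761 and 43773 across KL. Among 11 epithelial genes, 7 had both KL25 libraries above both KL libraries (19.1% of all genes tested) and 0 below (15.0% of all genes), with sums of 5669 and 4242 FPKM across KL25, versus 1470 and 3348 across KL. Of 10 neutrophil genes 9 were in the table, with sums of 2088 and 1222 FPKM across KL25, versus 41634 and 748 across KL, and of these Camp was listed at 0 in KL replicate 2. The 7 endothelial genes summed to 86.7 and 176 FPKM across KL25, versus 107 and 264 across KL, and the 7 fibroblast genes to 44.2 and 119 FPKM across KL25, versus 49.1 and 53.1 across KL, with none of these genes at 0. Of 6 platelet genes, the sum was 46.3 and 27.7 FPKM across KL25, versus 37.4 and 13.7 across KL, with Gp9 at 0 in KL25 replicate 1 and KL replicate 2. Of 6 erythroid genes 3 were in the table, summing to 14.1 and 9.88 FPKM across KL25, versus 4.17 and 9.31 across KL, with Hbb-bs at 0 in 3 libraries and Alas2 at 0 in KL replicate 1. Counted in the same way, 0 of 9 neutrophil genes lay below or above. Of 7 endothelial genes 1 lay below and 0 above, and of 7 fibroblast genes 0 lay below and 2 above. Among genes that passed the level filter, 1 of 3 platelet and 1 of 2 erythroid genes lay above and 0 below. These counts stand against the same 15.0% below and 19.1% above over all genes. The part of these markers in the kinase values was not tested.

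The rest of the pathway was read from 11 lists of 121 phosphoinositide genes grouped by enzyme class, of which 120 were in the table and 106 passed the level filter. None of the 106 passed in limma, and the 3 genes named from each list below are those with the lowest unadjusted p in it. Each KL25 library was below each KL library in 34 of 106 (32.1%, against 15.0% of all genes tested) and above them in 11 of 106 (10.4%, against 19.1%), with a median log2 difference of -0.13. Without KL replicate 1 the counts were 55 below and 31 above of 106, where 36.7% of all genes lay below and 35.5% above. Without KL replicate 2 they were 63 below and 29 above, where 35.4% of all genes lay below and 45.1% above. Leaving out either KL library raises such counts for all genes too, so each is read against its own background. The counts for single lists below rest on 6 to 19 genes each and stand against the same 15.0% below and 19.1% above over all genes. Listed genes passed the filter through either group, and members of a list can vary together.

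**Figure D4:**
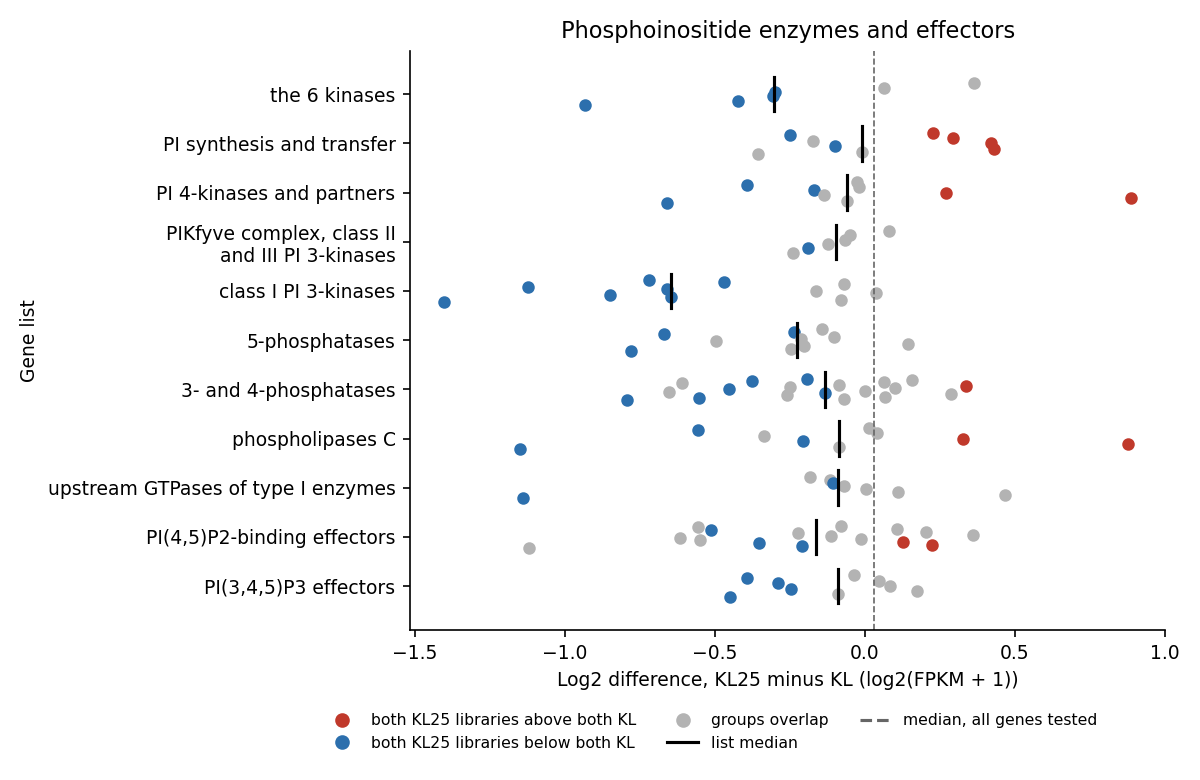
Log2 difference (KL25 minus KL, log2(FPKM + 1) scale) of each measured gene of the 6 kinases and of 10 phosphoinositide lists, red where each KL25 library was above each KL library, blue where each was below and grey where they overlapped, with black bars for list medians and a dashed line for the median of all genes. The class I PI 3-kinase list has the lowest median, -0.64.

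Upstream of the type I kinases, the PI 4-kinases make their substrate. Of 9 measured genes of that list 3 had KL25 below KL and 2 above, with a median log2 difference of -0.059. Pi4ka, the PI 4-kinase of the plasma membrane, was at 5.76 and 7.96 FPKM across KL25, versus 12.4 and 10.2 across KL. Pi4k2b, a type II PI 4-kinase of endosomal membranes, differed the other way, at 33.6 and 25.5 FPKM across KL25, versus 15.0 and 15.7 across KL, with an adjusted p of 0.942 in limma. Ttc7b, a partner of Pi4ka, was at 10.4 and 13.0 FPKM across KL25, versus 14.8 and 16.3 across KL. Genes of PI synthesis and transfer had 4 of 9 above and 2 of 9 below (median -0.0076). Among them Cds1, which makes the CDP-diacylglycerol that PI synthesis uses, was at 5.62 and 5.32 FPKM across KL25, versus 3.53 and 4.14 across KL. Cdipt, the PI synthase, was at 41.4 and 39.9 FPKM across KL25, versus 27.4 and 39.7 across KL. Pitpnm3, of the PI transfer family, was at 1.65 and 1.91 FPKM across KL25, versus 0.693 and 1.51 across KL.

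Small GTPases that activate type I kinases had 2 of 8 below and 0 above (median -0.088). Arf6, a direct activator of type I kinases, was at 48.2 and 44.0 FPKM across KL25, versus 59.5 and 39.2 across KL, and was named for that role. Rac2, the Rac of blood cells, was at 39.3 and 46.7 FPKM across KL25, versus 166 and 54.9 across KL, with its high value in KL replicate 1. Rhoc was at 97.5 and 89.1 FPKM across KL25, versus 41.9 and 107 across KL, and Rhob at 64.8 and 69.9 FPKM across KL25, versus 84.5 and 69.3 across KL. The groups of both overlapped.

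The list of class I PI 3-kinases, which turn PI(4,5)P2 into PI(3,4,5)P3, had the lowest median log2 difference, -0.64. Of 11 genes 7 had both KL25 libraries below both KL libraries (15.0% of all genes tested) and 0 above (19.1%), and 10 had a negative difference. The list also holds Pik3ap1 and Pik3ip1, which are not kinase subunits and had its lowest differences, -1.40 and -1.12. The groups of Pik3ca, Pik3r1, Pik3r2 and Pik3r3 overlapped, with differences of -0.16, -0.071, -0.079 and 0.038. Pik3cd, the catalytic subunit prominent in leukocytes, was at 8.18 and 12.6 FPKM across KL25, versus 22.6 and 16.1 across KL. Pik3ap1, an adaptor of B cells and myeloid cells, was at 27.7 and 43.0 FPKM across KL25, versus 164 and 52.2 across KL, and its high value lay in KL replicate 1. Pik3r5, a regulatory subunit of the G protein-coupled receptor-driven enzyme, was at 22.5 and 28.3 FPKM across KL25, versus 38.6 and 41.5 across KL. None passed in limma, where the adjusted p of these 3 genes was 0.942. Without KL replicate 1 the list median was -0.29 and 8 of 11 lay below, where 36.7% of all genes did. Without KL replicate 2 it was -0.59 and 9 of 11, where 35.4% of all genes did. Of the 14 leukocyte genes given above 5 were below in the same way and the others overlapped, and their part was not tested.

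Phosphatases and lipases that act on phosphoinositides formed the next lists, and not all of them act on PI(4,5)P2. The 5-phosphatases had 3 of 10 below and 0 above (median -0.22). Inpp5d, the SHIP1 phosphatase of blood cells, was at 19.0 and 21.6 FPKM across KL25, versus 43.9 and 28.6 across KL. Inpp5k was at 15.8 and 21.0 FPKM across KL25, versus 36.6 and 23.8 across KL, and the groups of Inpp5a overlapped, at 8.58 and 11.0 FPKM across KL25, versus 21.6 and 9.10 across KL. The 3- and 4-phosphatases had 6 of 19 below and 1 above (median -0.13). Of these the myotubularins Mtmr3, Mtmr7 and Mtm1 had the lowest unadjusted p, and Mtmr3 was at 10.1 and 12.8 FPKM across KL25, versus 28.3 and 14.7 across KL. Mtmr7 was at 7.11 and 8.63 FPKM across KL25, versus 10.5 and 13.6 across KL, and Mtm1 at 12.5 and 13.8 FPKM across KL25, versus 22.4 and 15.0 across KL. Phospholipases C, which cut PI(4,5)P2 into second messengers, had 3 of 9 below and 2 above (median -0.087). Plcd3 was at 7.08 and 3.70 FPKM across KL25, versus 2.10 and 2.63 across KL. Plcg2, the isoform of B cells and myeloid cells, was at 12.9 and 13.2 FPKM across KL25, versus 19.2 and 20.2 across KL, and its replicates lay close together. Plcb4 was at 0.325 and 0.954 FPKM across KL25, versus 4.07 and 1.51 across KL.

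Among proteins that bind PI(4,5)P2, 3 of 16 had KL25 below KL and 2 above (median -0.16), which is 18.8% and 12.5% against 15.0% and 19.1% of all genes, so the lower share is near the background. Dnm2, a dynamin that pinches off endocytic vesicles, was at 35.3 and 39.0 FPKM across KL25, versus 48.9 and 58.2 across KL. Tln1, the talin that binds the Pip5k1c protein, was at 18.5 and 23.8 FPKM across KL25, versus 41.4 and 23.5 across KL, and its groups overlapped because only KL replicate 1 was high. Msn, which ties actin to the membrane, had the same pattern, at 154 and 183 FPKM across KL25, versus 365 and 182 across KL. The list labelled PI(3,4,5)P3 effectors, not all of whose genes bind that lipid itself, had 4 of 9 below and 0 above (median -0.091). Btk was at 14.8 and 21.8 FPKM across KL25, versus 22.8 and 27.2 across KL, Akt2 at 17.2 and 18.0 FPKM across KL25, versus 26.7 and 20.6 across KL, and Plekha1 at 18.8 ± 2.51 FPKM for KL25 and 23.1 ± 2.98 FPKM for KL (SD, n = 2 for each). The PIKfyve complex with class II and class III PI 3-kinases had 1 of 6 below and 0 above (median -0.095), the single gene being Pik3r4, at 4.24 and 4.46 FPKM across KL25, versus 5.02 and 5.19 across KL. The groups of Vac14 overlapped, at 9.50 and 17.03 FPKM across KL25, versus 13.6 and 17.1 across KL. Those of Fig4 overlapped too, at 7.84 and 9.98 FPKM across KL25, versus 8.34 and 11.3 across KL. The list of other phosphatidylinositol phosphate kinase genes held 1 gene, the related Pip5kl1, which was not found in the deposited expression table and so has no value here.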

How the data were processed

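RNA of CD45-negative lung tumour cells, 2 KL25 and 2 KL libraries, was prepared with a stranded mRNA kit, per the labels. The labels' protocols name cutadapt for trimming, GRCm38 for alignment and HTSeq for counting per gene, while the submitters' processing notes also list GRCm39; which aligner, versions and strand setting were used is not given in the sources used here. Each deposited value of a library was taken to be FPKM, from the values alone (not whole, totals of 525973 to 564975 per library); their header names no unit. Per the file headers, the authors also deposited a signal column of normalized counts averaged over libraries, the log2 fold change and SE, a score for the test, and p-values before and after adjustment. Of 21445 rows, 25 whose names had become dates (0.117% of summed FPKM) were left out. A second deposited table held the same 4 values for all 21420 genes.

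Size factors were read from genes seen in 1 library, whose deposited means were whole multiples of a step (100% within 0.01 of a step). Counts per gene were not recovered from FPKM, so no counting interval is given. The fit was limma 3.58.1 (R 4.3.3) on log2(FPKM + 1), the variance allowed to follow the mean. It covered genes averaging 1 FPKM or more in KL25 or in KL, with a threshold of 0.05 after Benjamini-Hochberg adjustment. The script was also run on simulated data with larger differences than those of the members, so that run does not show its power for them. The added 1 shrinks the differences of low genes. With 2 against 2 libraries an exact permutation test cannot go below p = 0.333. The limma p-values set each difference against the spread between these libraries, with variance shared across genes.

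The members and lists were chosen with earlier results of these data known. Named genes were the 6 members, Usp25, Stk11, the 3 measured genes of lowest unadjusted p in each list, and the nearest profiles (5 for Pip5k1c, 3 for other members, without predicted-gene symbols). Arf6, F420014N23Rik, Pik3ip1, Pik3ca, Pik3r1, Pik3r2, Pik3r3 and the single marker genes were named outside this rule after their values were seen. Positions are from GENCODE M21 (GRCm38) and promoters from RefSeq (GRCm38.p6), where 4 of 6 members matched. A further allele that the KL25 and KL mice share is not reported here.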

Additional observations from a re-analysis of the deposited data

How the results depend on the processing

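Counts of genes passing in limma were 0 in both directions under every alternative run (pseudocounts 0.1 and 5, no level filter, a mean of at least 5 FPKM, median-of-ratios and TPM scaling, no trend, a threshold of 0.1, each library left out). With the replicate number as a replicate block the count was also 0, and the unadjusted p was below 0.05 for 373 higher and 252 lower genes. With 1 library left out these unadjusted counts ran from 107 to 1205 higher and from 49 to 1445 lower, the highest without KL replicate 2 and the lowest without KL25 replicate 1. Same-numbered libraries share only a number (correlation of the replicate differences 0.15 over 12476 genes). The log2 difference of Pip5k1c moved by more than its small replicate spread to -0.83 with a pseudocount of 5, -0.98 with median-of-ratios scaling and -1.01 in the authors' deposited table. That of Pip4k2b moved to -0.23 and -0.57 with the first and the last of these, and it had no value at a mean of at least 5 FPKM. Pip5k1c, Pip4k2a, Pip4k2b and Pip4k2c were negative under every alternative run. With each library left out, Pip5k1a ranged from -0.44 to 0.56 and Pip5k1b from -0.064 to 0.79; the cause was not tested. Leaving out each KL library was added after seeing the data for the counts of groups that do not overlap. It gave 55 (without KL replicate 1) and 63 (without KL replicate 2) pathway genes below, 34 with all libraries, and 31 and 29 above, 11 with all libraries, because a single KL library is easier to clear. Depth limits Pip5k1b and Pip4k2b most, with mean normalized counts of 207 and 218.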

Other observations

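Of the measured protein-coding genes beside Pip5k1c on chromosome 10, 4 before it and 4 after it, 0 had libraries of KL25 wholly below or above those of KL, where 15.0% of all genes tested lay below and 19.1% above. Their log2 differences ranged from -0.25 to 0.43. Tjp3, a tight junction protein whose gene lies on the opposite strand with its start 1382 bases before that of Pip5k1c, was at 6.02 and 5.71 FPKM across KL25, versus 6.08 and 2.94 across KL. Cactin, a splicing-associated gene that starts 1130 bases after it, was at 4.95 and 6.22 FPKM across KL25, versus 5.70 and 8.02 across KL. These genes were chosen by position after the data were seen, and no test was made of them. Fam122a, which lies in an intron of Pip5k1b on the same strand, was at 13.8 and 13.7 FPKM across KL25, versus 15.6 and 13.9 across KL, and so did not share the high value of Pip5k1b in KL25 replicate 1.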
